A study of Sus scrofa with 12 samples.

Results

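Glucose entry, glycolysis, fructose use and glycogen storage in the liver were followed through 8 genes, SLC2A2, GCKR, PFKL, PKLR, KHK, MLXIPL, GYS2 and PYGL. The genes were taken by symbol from a table of 31694 listed genes, and all 8 were present and among the 12993 genes that passed the filter on low values. The libraries came from the liver of 3 Jinhua (JH) and 3 Landrace (LD) pigs, all uncastrated males of 70 days, with 1 mRNA library per pig and no treatment named. JH is a slow growing Chinese breed with high fat deposition, and LD is a fast growing lean breed that served as the control group. Whether the pigs had been fed before sampling is not given in the sources used here, and breed cannot be told apart from litter or housing.

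In background terms, SLC2A2 encodes GLUT2, the carrier through which glucose crosses the hepatocyte membrane in both directions. Glucose inside the cell is phosphorylated by hexokinases, and GCKR encodes a regulatory protein that acts on this step in liver. The glucose phosphate then passes either to glycolysis, with PFKL and PKLR as the liver forms of its committed step and last step, or to glycogen, which GYS2 builds and PYGL breaks down. KHK starts fructose use, and MLXIPL, also called ChREBP, is the transcription factor that raises glycolytic and lipogenic genes when sugar is plentiful, with PKLR as its classical target.

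Expression was given by the authors as RPKM, the reads of a gene scaled to the length of its model and to the reads of the library. This scale sets genes and pigs side by side, but it corrects neither for an incomplete gene model nor for a shift in RNA makeup. The totals behind the RPKM, recovered from the steps between low values, ranged from 5744911 reads in JH1 to 7914517 in LD3. These totals lie below the clean reads of the study, and which reads the RPKM were divided by is not given in the sources used here, so that all read numbers printed rest on this recovery. The levels of the 8 genes rested on 114 to 3748 recovered reads per library. The coefficient of variation that counting alone gives at these reads was 1.8% to 7.1%, below the spread between pigs of every gene and breed except GYS2 in LD, where it was 4.2% against a spread of 3.2%, and close to it for PKLR in LD, at 4.4% against 4.9%. The ribosomal RNA gene RN18S ranged from 1570 RPKM in JH2 to 62260 in JH3 and was 20160 in LD3, and JH3 and LD3 also had the lowest median levels. The hepatocyte markers ALB and TTR were abundant in all libraries, while APOB was listed at 0 in all 6, so that a listed 0 in these files does not show absence. The 8 listed hepatocyte genes summed to 37770 to 45050 RPKM in JH and 49800 to 65070 in LD, with ALB lower in every JH pig (log2 fold change -0.67, adjusted p = 0.258). The hepatocyte genes also went in both directions. CPS1 and SERPINC1 were lower in every JH pig, at -0.40 and -0.28, and HPD was higher in every JH pig, at 0.47. TTR, F2 and TAT overlapped, at -0.17, -0.55 and 0.13. The 5 genes of pericentral hepatocytes summed to 599 to 1622 RPKM in JH and 1739 to 2557 in LD, but they went in both directions. GLUL was called lower in JH (log2 fold change -1.39, adjusted p = 0.049). CYP2E1, the most abundant of them, and CYP1A2 had log2 fold changes of -1.16 and -0.16. OAT and AXIN2 were higher in JH, at 0.91 and 0.965, and all JH values of OAT lay above the LD values. The 6 genes of periportal hepatocytes summed to 604 to 1989 RPKM in JH and 629 to 862 in LD, so that their sums overlapped. All JH values of ARG1 lay above the LD values (log2 fold change 1.14, adjusted p = 0.182). SDS and ASS1 were at 1.18 and 0.48, HAL and PCK1 at -0.07 and -0.03, and GLS2 was listed at 0 in all libraries. Of the markers of other cells, the 8 stellate cell and fibroblast genes summed to 84.2 to 103 RPKM in JH and 196 to 396 in LD, the 5 listed endothelial genes to 50 to 52.2 and 72.6 to 78.4, and the 4 listed red cell genes to 90.2 to 122 and 213 to 393. Sums overlapped for bile duct genes (6.99 to 15.5 and 14.2 to 34.5), macrophage genes (216 to 454 and 386 to 588) and lymphocyte genes (18.2 to 88.9 and 28.0 to 30.2). All 3 tested bile duct genes had a lower level in JH. A higher level in JH was found for 3 of 4 tested macrophage genes and 3 of 5 tested lymphocyte genes. The part of these marker differences in the results given here was not tested. In whole liver, fewer cells of a type and less RNA per cell cannot be told apart.

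None of the 8 genes was called between the breeds. Calls were made with limma on log2(RPKM + 0.1) at a Benjamini-Hochberg adjusted p below 0.05 together with an absolute log2 fold change above 1, and 2.39% of all tested genes were called. At an unadjusted p below 0.05 there were 2 of the 8, GYS2 with the higher level in JH and PKLR with the lower, against 17.9% of all tested genes. The 3 JH values lay apart from the 3 LD values in the same 2 genes, against 23.4% of all tested genes. Both shares of the 8 (25%) were near the background, so the genes as a group did not stand apart. The mean was lower in JH for 5 genes and higher for 3, and the median of the log2 fold changes (JH over LD) was -0.26 against 0.04 over all tested genes. Fold changes are on the log2(RPKM + 0.1) scale.

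**Figure D1:**
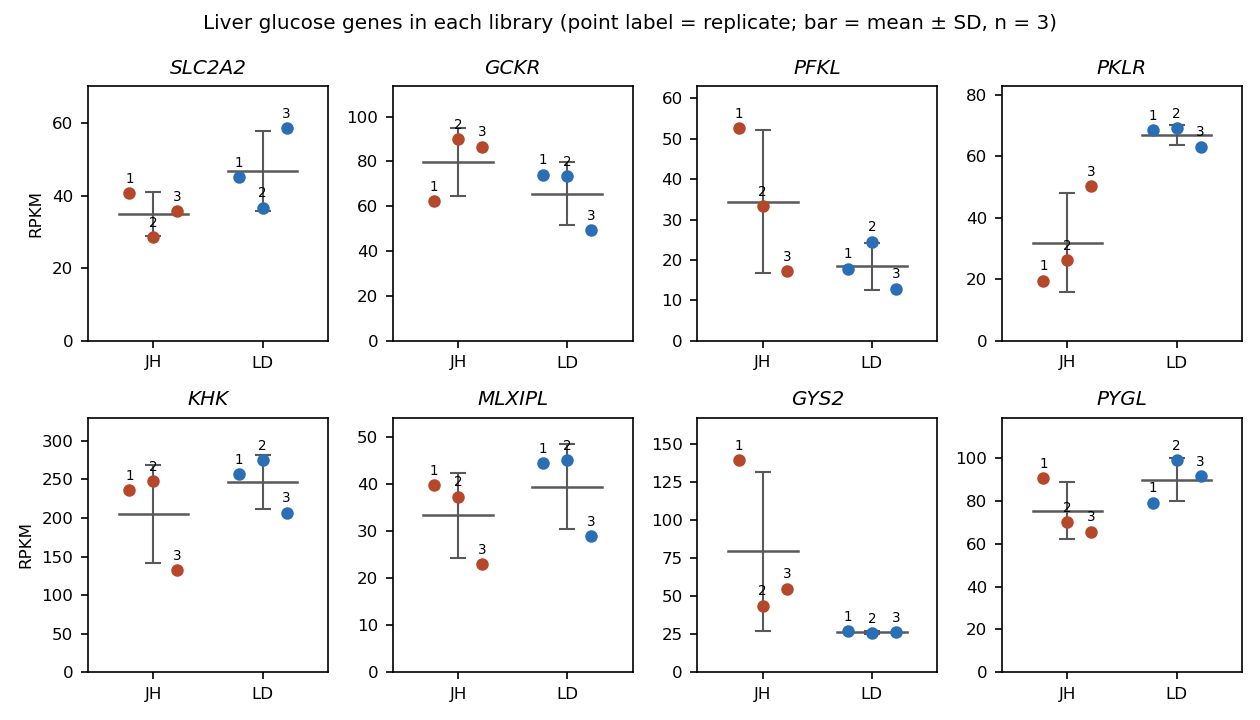
RPKM of the 8 genes in each library (y axis from 0), with JH in red and LD in blue, the replicate number above each point, and the mean with its SD (n = 3) as bars. GYS2 is at 43.9 RPKM or more in JH and at 27.2 or less in LD, PKLR is at 50.2 or less in JH and at 63.2 or more in LD, and the breeds overlap in the other 6 genes.

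The glucose carrier SLC2A2 was at 40.7 RPKM in JH1, 28.5 in JH2 and 35.6 in JH3, and at 45.1 in LD1, 36.6 in LD2 and 58.5 in LD3. JH1 lay above LD2, so the breeds overlapped. JH differed from LD by -0.41 on the log2 scale (standard error, SE, 0.27, 95% interval -1.01 to 0.19, adjusted p = 0.464). SLC2A1, the carrier found in most tissues, was at 9.38 ± 4.63 RPKM (SD, n = 3) in JH pigs and 7.87 ± 2.46 in LD. SLC2A4 and SLC2A5, the insulin-regulated carrier of muscle and fat and the intestinal fructose carrier, were listed at 0 in all libraries. Of the list of 16 other hexose carriers 8 were tested and 1 was called, against 2.39% of all tested genes. This was SLC5A9, a sodium-coupled mannose and glucose carrier, at 2.18, 2.24 and 2.88 RPKM in JH1, JH2 and JH3 and at 0.765, 0.344 and 0.412 in LD1, LD2 and LD3. The difference of 2.11 on the log2 scale (SE 0.38, adjusted p = 0.0301) rested on 5 to 41 reads per library, and leaving out any 1 of the 6 libraries ended the call, with adjusted p between 0.0525 and 0.0967.

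The regulator GCKR was at 62.3, 89.9 and 86.6 RPKM in JH1, JH2 and JH3 and at 74.0, 73.4 and 49.4 in LD1, LD2 and LD3. LD3 was the lowest library and JH1 lay below LD1 and LD2. JH differed from LD by 0.28 on the log2 scale (SE 0.27, 95% interval -0.32 to 0.89, adjusted p = 0.623). Of the hexokinases HK1 was at 5.04 ± 1.23 RPKM (SD, n = 3) in JH pigs and 8.36 ± 1.06 in LD, with every JH value below every LD value and a log2 fold change of -0.74 (adjusted p = 0.187). HK2 was at 0.124 RPKM or less in every library.

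PFKL, the liver subunit of phosphofructokinase, was at 52.6 RPKM in JH1, 33.4 in JH2 and 17.3 in JH3, and at 17.8 in LD1, 24.5 in LD2 and 12.9 in LD3. JH1 and JH2 lay above all LD pigs, while JH3 lay below LD1 and LD2. JH differed from LD by 0.81 on the log2 scale (SE 0.41, 95% interval -0.12 to 1.73, adjusted p = 0.345), and it was 0.43 without JH replicate 1 and 1.23 without JH replicate 3. The muscle form PFKM, at 1.93 ± 0.309 RPKM (SD, n = 3) in JH pigs and 2.94 ± 0.602 in LD, and the platelet form PFKP, at 3.83 ± 2.74 and 3.30 ± 0.434, were minor. The ratio of PFKL to the sum of both was 11.7, 3.79 and 4.10 in JH1, JH2 and JH3 and 2.89, 3.76 and 2.07 in LD1, LD2 and LD3. The breeds did not overlap in this ratio, although JH2 and LD2 were almost level (two-sided exact permutation test, p = 0.1, 0.333 adjusted over 10 ratios).

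PKLR, the pyruvate kinase of liver and red cells, was at 19.6 RPKM in JH1, 26.2 in JH2 and 50.2 in JH3, and at 68.6 in LD1, 69.1 in LD2 and 63.2 in LD3. The LD pigs lay close together, with a coefficient of variation of 4.9% against 50.4% in JH, and JH3 was nearer to LD than to JH1. On average PKLR was 2.26 times lower in JH, or -1.18 on the log2 scale (SE 0.34, 95% interval -1.94 to -0.41). This passed the unadjusted level and missed the threshold after adjustment (limma, adjusted p = 0.118). Without JH replicate 3 it was called, with a log2 fold change of -1.56 and an adjusted p of 0.0186, the only alternative of 16 that called any of the 8 genes. The model that its RPKM was divided by had 1014 bases, the shortest of the 8, so that PKLR had 114 to 553 reads. PKM, the form of most other tissues, was at 8.04 ± 3.22 RPKM (SD, n = 3) in JH pigs and 8.68 ± 0.491 in LD. The ratio of PKLR to PKM was 2.83, 2.23 and 8.86 in JH1, JH2 and JH3 and between 7.50 and 7.76 in LD, with JH3 above LD. Since PKLR is also the red cell form, the red cell marker HBB is given beside it. HBB was at 98.3, 89.1 and 119 RPKM in JH1, JH2 and JH3 and at 389, 210 and 230 in LD1, LD2 and LD3, and its part in the PKLR difference was not tested.

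KHK, ketohexokinase, was the most abundant of the 8 genes in every library. It was at 236, 248 and 132 RPKM in JH1, JH2 and JH3 and at 257, 275 and 207 in LD1, LD2 and LD3. The breeds overlapped, and JH3 and LD3 were the lowest of their breeds. JH differed from LD by -0.31 on the log2 scale (SE 0.30, 95% interval -0.98 to 0.37, adjusted p = 0.633).

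MLXIPL was at 39.7, 37.3 and 23.0 RPKM in JH1, JH2 and JH3 and at 44.4, 45.1 and 29.0 in LD1, LD2 and LD3. Each LD pig exceeded the JH pig of the same rank, but the ranges overlapped and JH differed from LD by -0.25 on the log2 scale (SE 0.30, 95% interval -0.93 to 0.42, adjusted p = 0.702). Its partner MLX, without which it does not bind DNA, was at 31.2 ± 2.76 RPKM (SD, n = 3) in JH pigs and 27.0 ± 1.56 in LD, and the related MLXIP was at 0.953 ± 0.386 and 1.40 ± 0.329. MLXIPL and KHK had the most similar profiles of any pair among the 8. The root mean square difference between their centred log2 levels over the 6 libraries was 0.11, against a deviation of 0.35 of each gene from its own mean, and both were lowest in JH3. TXNIP and ARRDC4, arrestin-like genes that respond to MLXIPL and its relatives, were at 61.5 ± 14.8 and 3.17 ± 0.683 RPKM (SD, n = 3) in JH pigs and at 101 ± 33.4 and 6.23 ± 2.46 in LD. Their log2 fold changes were -0.69 and -0.90, with adjusted p of 0.268 and 0.196.

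Among 9 tested partners and response genes of MLXIPL, 3 had a higher and 2 a lower JH level at an unadjusted p below 0.05, where 8.35% and 9.51% of all tested genes were, and the median log2 fold change was 0.06. The 2 lower genes were TXNIP and ARRDC4. The 3 higher genes were FGF21, GPD1 (log2 fold change 0.91, limma adjusted p = 0.196) and RGS16 (1.12, adjusted p = 0.267). FGF21, a liver hormone of fasting and sugar intake, was the called gene of this list. It was at 23.1, 10.3 and 5.93 RPKM in JH1, JH2 and JH3 and at 0.475, 0.940 and 0.0852 in LD1, LD2 and LD3. Its log2 fold change of 4.56 ± 0.66 (SE; adjusted p = 0.0117) was 3.09 with a pseudocount of 1, and its level in LD3 rested on 1 read.

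GYS2, the liver glycogen synthase, was at 139 RPKM in JH1, 43.9 in JH2 and 55.0 in JH3, and at 27.2 in LD1, 25.5 in LD2 and 26.3 in LD3. All JH pigs lay above all LD pigs, and JH1 was 3.18 times JH2. In LD the coefficient of variation was 3.2%, against 65.8% in JH, while the median over 2640 genes of 20 RPKM or more was 19.0% in LD and 24.1% in JH. The level was 2.63 times higher in JH on average, or 1.40 on the log2 scale (SE 0.40, 95% interval 0.50 to 2.29). As with PKLR, this passed the unadjusted level and missed the threshold after adjustment (limma, adjusted p = 0.114). Without JH replicate 1 the log2 fold change was 0.90, and no alternative called the gene, with adjusted p between 0.0629 and 0.267. The muscle form GYS1 was at 4.73 ± 0.741 RPKM (SD, n = 3) in JH pigs and 4.0 ± 1.06 in LD.

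PYGL, the liver glycogen phosphorylase, was at 90.3, 70.1 and 65.5 RPKM in JH1, JH2 and JH3 and at 79.0, 98.9 and 91.4 in LD1, LD2 and LD3. JH1 lay within the LD range and the other JH pigs lay below it. JH differed from LD by -0.26 on the log2 scale (SE 0.24, 95% interval -0.80 to 0.28, adjusted p = 0.607), the narrowest interval of the 8. The muscle form PYGM was at 1.15 RPKM or less in every library, and the brain form PYGB was listed at 0 in all. The ratio of GYS2 to PYGL was 1.54 in JH1, 0.627 in JH2 and 0.840 in JH3, and 0.345 in LD1, 0.259 in LD2 and 0.289 in LD3. All JH pigs lay above all LD pigs, by 3.16 times on average (two-sided exact permutation test, p = 0.1, 0.333 adjusted over 10 ratios). With 3 pigs against 3 no permutation p can fall below 0.1.

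**Figure D2:**
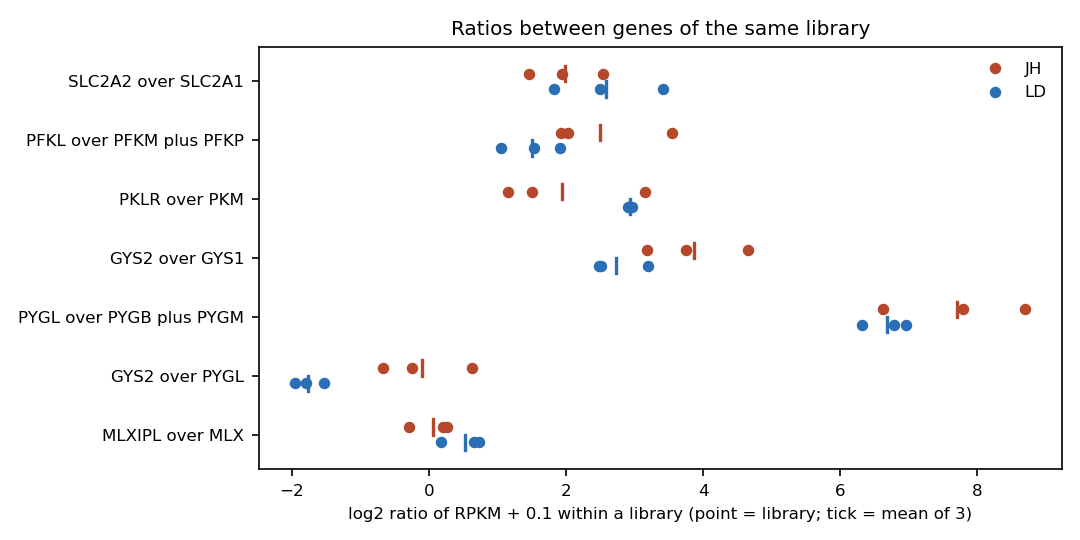
Log2 ratio of RPKM + 0.1 between genes of the same library for 7 ratios (x axis), with JH in red, LD in blue and the mean of each breed as a tick. The breeds do not overlap in 2 ratios, PFKL over PFKM plus PFKP and GYS2 over PYGL, both higher in JH, and they overlap in the other 5.

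Other genes of glycogen metabolism showed no call. None of the 6 tested genes of glycogen synthesis, the 8 of glycogen breakdown and the 11 regulators was called, with median log2 fold changes of -0.16, -0.20 and 0.18. GBE1, the branching enzyme, was at 17.9, 23.3 and 53.3 RPKM in JH1, JH2 and JH3 and at 54.8, 34.1 and 44.4 in LD1, LD2 and LD3. UGP2, which makes the UDP-glucose that GYS2 consumes, was at 156 ± 40.3 RPKM (SD, n = 3) in JH pigs and 163 ± 26.5 in LD. PPP1R3C, which brings protein phosphatase to glycogen, was at 88.2, 169 and 153 RPKM in JH1, JH2 and JH3 and at 128, 95.3 and 16.4 in LD1, LD2 and LD3. LD3 was thus the lowest library for PPP1R3C as it was for GCKR and PFKL.

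**Figure D3:**
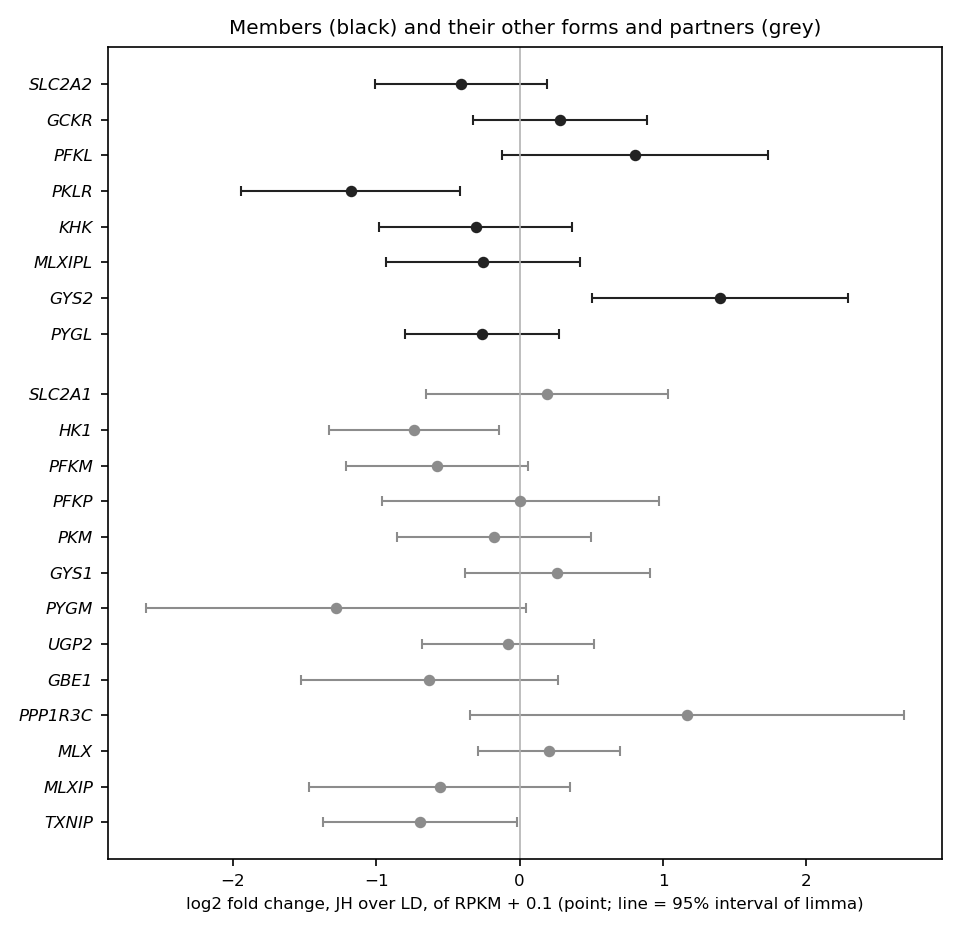
Log2 fold change of JH over LD (points) with its 95% interval from limma (lines) for the 8 genes in black and for their other forms and partners in grey. The intervals of PKLR (-1.94 to -0.41) and GYS2 (0.50 to 2.29) leave out 0, those of the other 6 members include it, and PPP1R3C has the widest interval (-0.35 to 2.68).

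The other lists of glucose metabolism held further calls in glycolysis, glucose output and fatty acid synthesis. Of 14 tested glycolytic genes 2 were called, both higher in JH, against 1.02% of all tested genes called in that direction, and the median log2 fold change was 0.13. GAPDH was at 1392, 1242 and 866 RPKM in JH1, JH2 and JH3 and at 464, 522 and 322 in LD1, LD2 and LD3, with a log2 fold change of 1.42 ± 0.29 (SE; adjusted p = 0.0431). GAPDH was also the reference gene of the qRT-PCR in the study. LDHB, the lactate dehydrogenase subunit of oxidative tissues, was at 511, 134 and 60.2 RPKM in JH1, JH2 and JH3 and at 15.8, 19.1 and 13 in LD1, LD2 and LD3, with a log2 fold change of 3.34 ± 0.64 (SE; adjusted p = 0.0357). Of the other enzymes between PFKL and PKLR, TPI1, PGAM1 and ENO1 overlapped between the breeds, with log2 fold changes of 0.17, -0.35 and 0.12. All JH values of PGK1 lay above the LD values, with a log2 fold change of 0.36 (adjusted p = 0.448). GAPDH was called in 1 and LDHB in 2 of the 6 fits that left out 1 library.

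Of 15 tested genes around the control of phosphofructokinase and pyruvate dehydrogenase none was called, and at an unadjusted p below 0.05 there were 4 with the higher and 1 with the lower level in JH. Over all tested genes 8.35% were higher and 9.51% lower at that level. MPC2 and MPC1, which is listed as BRP44L, form the carrier that brings pyruvate into mitochondria, and they were at 136 ± 49.1 and 367 ± 72.8 RPKM (SD, n = 3) in JH pigs and at 59.2 ± 3.56 and 194 ± 62.6 in LD. PFKFB1, the liver enzyme that makes and removes the activator of phosphofructokinase, was at 7.32 ± 2.52 RPKM (SD, n = 3) in JH pigs and 12.7 ± 1.71 in LD. Adjusted p of the 3 genes lay between 0.103 and 0.177.

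Of 12 tested genes for fructose, galactose, polyol and mannose use none was called, 4 were higher in JH at an unadjusted p below 0.05, none was lower, and the median log2 fold change was 0.53. Over all tested genes 8.35% were higher and 9.51% lower at that level, and the median was 0.04. The 3 with the largest difference were PMM1, a phosphomannomutase, at 41.8 ± 36.0 RPKM (SD, n = 3) in JH pigs and 8.26 ± 2.71 in LD, and the galactose enzymes GALT, at 57.0 ± 20.1 and 25.1 ± 6.54, and GALK1, at 63.6 ± 27.2 and 33.9 ± 7.69. Of 6 tested genes of the pentose phosphate pathway none was called and none had an unadjusted p below 0.05.

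Of 7 tested genes of glucose output 1 was called, against 2.39% of all tested genes. This was PC, pyruvate carboxylase, at 428 ± 180 RPKM (SD, n = 3) in JH pigs and 71.9 ± 8.52 in LD, with a log2 fold change of 2.49 (adjusted p = 0.00751). Of 7 tested genes of fatty acid synthesis 2 were called, both lower in JH, where 1.36% of all tested genes were called in that direction. These were SCD and ACSS2, with log2 fold changes of -3.70 and -1.81 (adjusted p = 0.0301 and 0.0345). The JH libraries stood in the same order in SCD as in PKLR, with 6.48 RPKM in JH1, 11.8 in JH2 and 59.3 in JH3, and the same held for FASN, with 4.71, 11.7 and 55.3 RPKM. ACACA and ACSS2 also shared this order. ACLY, ELOVL6 and ME1 did not, as JH2 was their lowest JH library, although JH3 was again the highest. The LD libraries did not share an order. SCD was at 185, 204 and 267 RPKM in LD1, LD2 and LD3 and FASN at 68.9, 111 and 81.9, while PKLR was lowest in LD3. Of 8 tested genes of insulin and glucagon signalling none was called, and 4 were lower in JH at an unadjusted p below 0.05. Over all tested genes 9.51% were lower at that level. Among the 4, FOXO3, IRS1 and FOXO1 had the largest differences, with log2 fold changes of -1.47, -1.11 and -1.09 and adjusted p between 0.107 and 0.146. Of 13 tested liver transcription factors none was called. Over the 127 tested genes of all these lists, each counted once, 7 were called, 5 higher and 2 lower in JH. The 7 depended on single libraries, and without LD replicate 1 none of the 127 was called, while without JH replicate 3 there were 13.

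**Figure D4:**
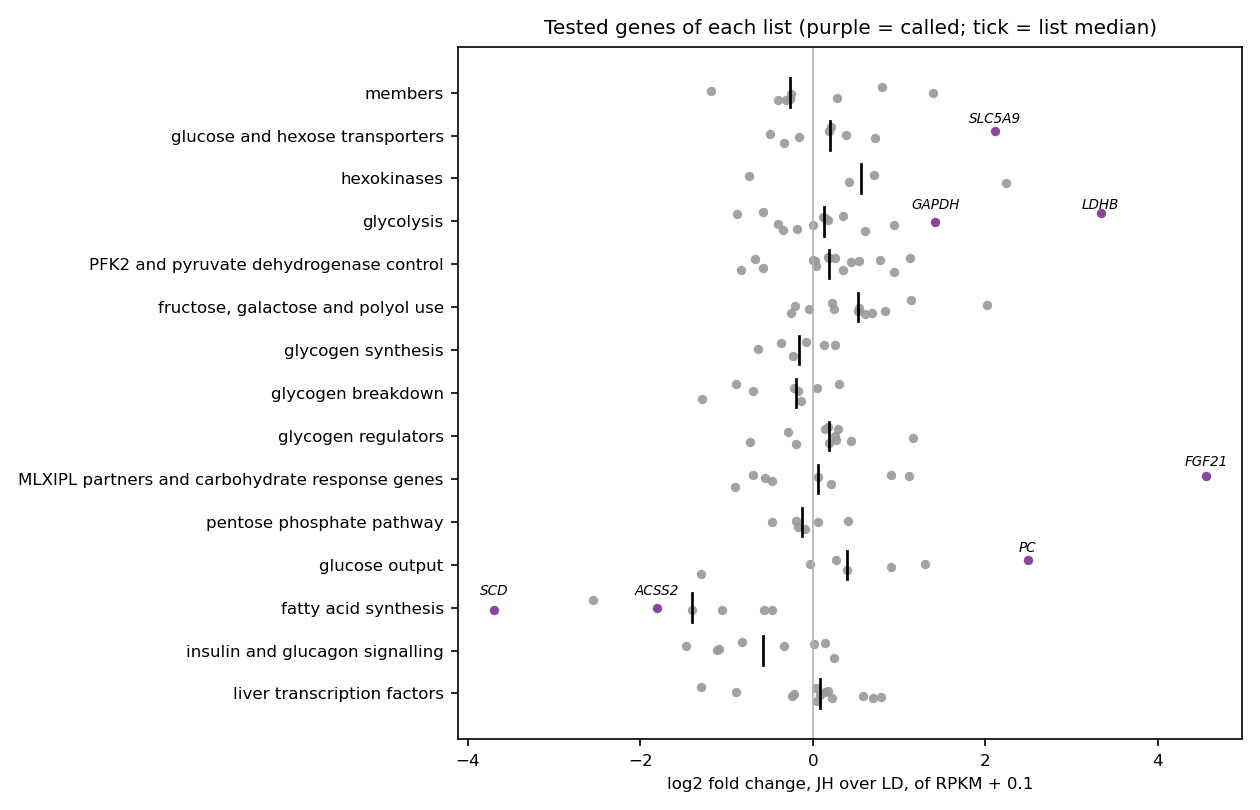
Log2 fold change of JH over LD for every tested gene of each list (grey points, purple where called) with the median of the list as a black tick. The 8 members have no call and a median of -0.26, and the called genes are SLC5A9, GAPDH, LDHB, FGF21 and PC on the side of JH and SCD and ACSS2 on the side of LD.

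All 8 genes were abundant in liver, between the 82.7th and the 97.6th percentile of the mean level of tested genes. KHK had a mean of 226 RPKM over the 6 libraries and lay above PYGL in 6 of 6, by 1.43 ± 0.31 (SD) on the log2 scale. PYGL followed with 82.5 RPKM and GCKR with 72.6, and this order held in 4 of 6 libraries. PKLR (49.5 RPKM), GYS2 (52.9) and SLC2A2 (40.9) could not be ranked among themselves, since PKLR exceeded GYS2 in 3 of 6 libraries and GYS2 exceeded SLC2A2 in 3 of 6. MLXIPL had a mean of 36.4 RPKM, below SLC2A2 in 4 of 6, and PFKL was lowest with 26.4, below MLXIPL in 5 of 6.

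The genes with the most similar profile to each member were sought among 9303 tested genes with a symbol, by the root mean square difference of centred log2 levels over the 6 libraries. The nearest were KIAA0182 and IP6K1 to MLXIPL (0.02 and 0.04), GPR108 and BRD8 to KHK (0.04 and 0.07), PARP8 and STK16 to GCKR (0.04 and 0.11), and STAU1 and CYB5R1 to PYGL (both 0.06). DSTYK and ARHGAP28 were nearest to SLC2A2 (0.08 and 0.10), PGLYRP2 and NAT6 to PFKL (0.09 and 0.11), and GPR126 and SHE to PKLR (0.09 and 0.11). GYS2 had the least close neighbours, PRR18 and ECH1, a peroxisomal and mitochondrial enzyme of fatty acid oxidation (0.17 and 0.21). With 6 libraries and this many candidates a close profile is found for most genes.

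The order of genes along the chromosomes, from the RefSeq annotation of assembly Sscrofa11.1, was examined after the values had been seen. The files use the earlier build, so only gene order is given. Of the 16 protein-coding genes directly beside the 8 members 11 were tested, of which 3 had an unadjusted p below 0.05 and 1 was called. Over all tested genes 17.9% had such a p and 2.39% were called. The called gene was LDHB, which lies directly beside GYS2. In both genes all JH pigs lay above all LD pigs, and both were by far highest in JH1. The gene on the other side of GYS2, SPX, was not analysed here, and the next genes outward did not separate, with log2 fold changes of -0.13 for KCNJ8 and 0.06 for GOLT1B. The annotation holds 2 entries named LDHB, and which of them the files count is not given in the sources used here. Beside PKLR lies FDPS, an enzyme of cholesterol synthesis, at 88.3, 71.7 and 133 RPKM in JH1, JH2 and JH3 and at 243, 475 and 185 in LD1, LD2 and LD3, with a log2 fold change of -1.55 (adjusted p = 0.0754). The JH values of both genes lay below their LD values, with JH3 the highest JH pig. On the other side of PKLR, HCN3 had a log2 fold change of 0.54 (adjusted p = 0.58). The third gene was CGREF1 beside KHK, with a log2 fold change of 1.68 (adjusted p = 0.198).

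**Figure D5:**
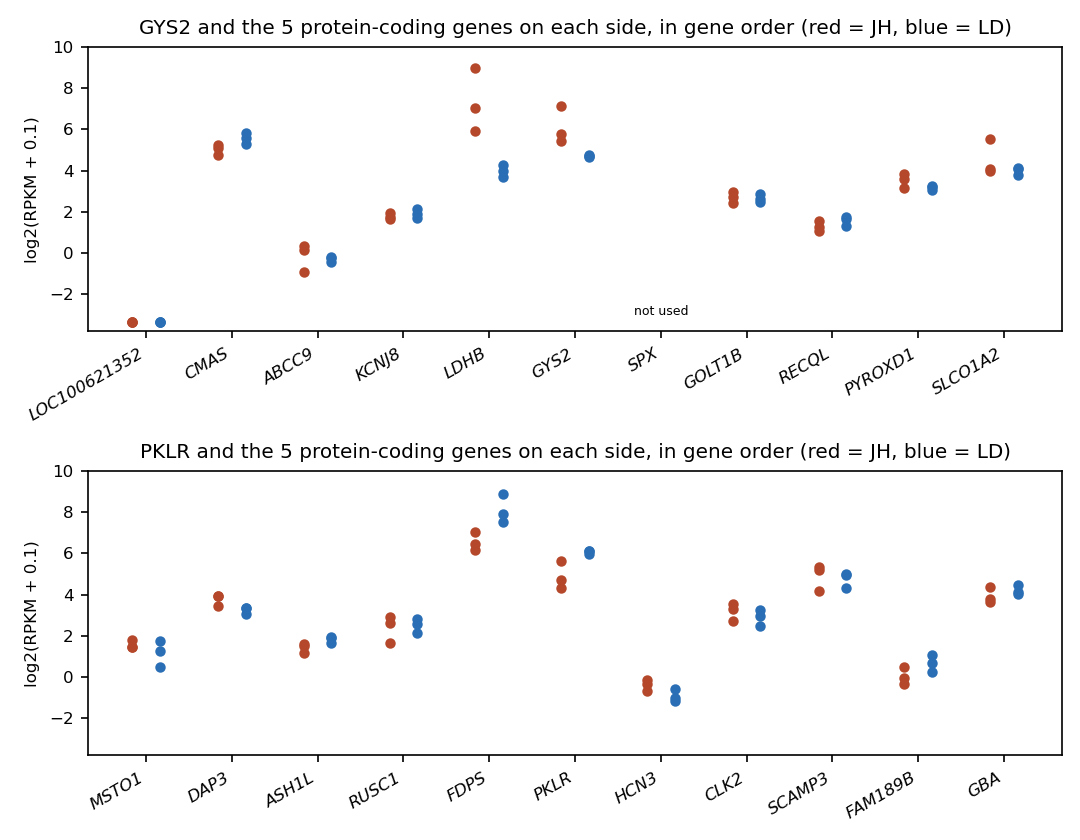
Log2(RPKM + 0.1) in each library (JH red, LD blue) for GYS2, PKLR and the 5 protein-coding genes on each side, in gene order. LDHB and GYS2 are adjacent and both higher in all JH pigs, FDPS and PKLR are adjacent and both lower in all JH pigs, and of the other tested genes shown only DAP3, ASH1L and CMAS do not overlap between the breeds.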

How the data were processed

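The mRNA libraries of 3 JH and 3 LD livers were used, assigned by their sample titles. The small RNA libraries were not used here. The authors aligned single reads to the pig assembly Sscrofa10.2 with TopHat2 2.0.13, obtained the reads and RPKM of each gene with gfold, and the deposited RPKM of 1 library fill 1 file. The strand setting is not given in the sources used here. Of 31694 listed names 24 are dates in place of symbols.

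Read totals and whole reads per gene were recovered from the 6 significant digits of the RPKM (17655 of 19614 genes above 0, 90%), which was tested on simulated data. The 12993 genes that reached 0.5 RPKM in 3 or more libraries were compared with limma 3.58.1 in R 4.3.3 (lmFit, eBayes with a trend) on log2(RPKM + 0.1), also tested on simulated data, and p-values were adjusted over all of them after Benjamini and Hochberg. A count test was not used, because the files hold RPKM. Ratios within a library were compared by two-sided exact permutation tests over all 20 splits. Whether the 3 pigs of a breed are unrelated is not given, so p-values measure only the spread between these samples.

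The members and gene lists were chosen with earlier results of these data known. Genes named were the members, their fixed isoforms and partners, in each list the called genes or else up to 3 with the largest difference at an unadjusted p below 0.05, the 2 genes most like each member, and neighbours, chosen after values were seen. SLC2A4, SLC2A5, TPI1, PGK1, PGAM1, ENO1, FASN, ACACA, ACLY, ELOVL6, ME1, ARRDC4, GPD1 and RGS16 were also named after their values were seen. Some genes and ratios covered by this rule are not reported here, though they remain in the counts, medians and adjustments of their lists. No row matched PPP1R3B, and the search of promoters for motifs was not run. Alternatives were pseudocounts of 0.5 and 1, no filter, a stricter filter, quantile normalization, median scaling, the replicate number as a block, voom on recovered reads, eBayes without a trend, and each library left out. Leaving out replicate 3 of both breeds was added after the values were seen. Python 3.11.15, pandas 2.3.3, numpy 2.4.6 and matplotlib 3.10.9 were used for tables and plots.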

Additional observations from a re-analysis of the deposited data

How the results depend on the processing

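The 8 genes kept their direction under all 16 alternatives, and 127 of 128 values stayed on the same side of the threshold. With 1 library left out, however, KHK, MLXIPL and GCKR came as near to 0 as -0.017, -0.008 and 0.092 on the log2 scale. The count of called members stayed at 0 except without JH replicate 3, where it was 1 (range over single libraries left out 0 to 1). With 1 library left out PKLR ranged from -1.56 to -0.88 and GYS2 from 0.90 to 1.73 on the log2 scale, and without replicate 3 of both breeds PKLR was -1.6 and not called. The calls over all genes (310) ranged from 63 to 403 with 1 library left out, were 200 without a filter and 101 without replicate 3 of both breeds. The calls in the pathway lists (7) ranged from 0 to 13 with 1 library left out, and were 2 without a filter and 3 without a trend. Among the other genes that were recomputed under the alternatives, 4 with differences near 0 changed sign. TPI1, PGK1, PGAM1, ENO1, FASN, ACACA, ACLY, ELOVL6, ME1, ARRDC4, GPD1, RGS16 and the markers were not recomputed. The same holds for the genes beside the members other than LDHB and for those of similar profile. With 1 library left out SLC2A1 ranged from -0.182 to 0.448 (negative without JH replicate 1 and, at -0.051, without LD replicate 3), PFKP from -0.529 to 0.313 (negative without JH replicate 2 and, at -0.095, without LD replicate 2), PKM from -0.481 to 0.046 (positive without JH replicate 3) and UGP2 from -0.285 to 0.047 (positive without JH replicate 3 and, at 0.042, without LD replicate 3). PFKP was -0.008 with median scaling, and without replicate 3 of both breeds PKM was 0.002 and UGP2 0.173. The cause was not tested. With the replicate number as a block 253 genes and no member were called, with adjusted p of 0.084 for GYS2 and 0.1 for PKLR. Whether the numbers pair the pigs cannot be settled from these values. Deviations of same-numbered pigs correlated weakly across genes, at -0.02, 0.05 and 0.18. JH1 correlated best with LD2 (0.08) and JH2 with LD1 (0.06), while JH3 correlated best with LD3, the highest value of any pair. With 3 pigs a breed, the intervals of SLC2A2, GCKR, PFKL, KHK, MLXIPL and PYGL include differences in either direction.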
